A study of Mus musculus with 26 samples.

Results

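The comparison described here is that of the GW3965 diet with the standard diet at day 70 of the AOM–DSS model of colitis-driven colorectal cancer. It used 6 of the 26 colon samples of the experiment, the 3 whose titles name the GW3965 diet and day 70 and the 3 whose titles name the standard diet and that day. GW3965 is a synthetic agonist of the liver X receptors (LXR). All 6 samples came from wild-type C57BL/6J males of one vendor, about 10 weeks old at the start, that had received azoxymethane (AOM), a carcinogen, at 10 mg per kg and then 3 cycles of dextran sulfate sodium (DSS) in the drinking water, each lasting 7 days. Besides the agonist the labels name no further difference between the diets, and no untreated animal enters the day 70 contrast. Each sample was labelled with a cage of its own, so the spread within a diet includes that between cages. The study's reporting summary states that bulk libraries were made from pools of a few biological replicates. A figure legend instead gives a few mice per timepoint, so a sample here stands for a pool or a mouse. Per the study's methods the biopsies were cut from the tumour areas of the distal colon, and the labels do not say how much tumour each one held. The study reports fewer and smaller tumours in this model in mice fed the agonist. Biopsies of the diets may thus differ in tumour content, and its part in the values below was not tested. Messenger RNA was sequenced, and levels are given as CPM, counts scaled to a common library size. The question addressed was which stromal, myeloid and epithelial genes, beyond the B lineage, differed between the diets once tumours were present.

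LXRα and LXRβ are nuclear receptors that bind oxysterols and, with the retinoid X receptor as partner, switch on genes for cholesterol efflux and fatty acid synthesis. In macrophages they also restrain inflammatory genes. The colon wall around the epithelium holds fibroblasts, vessels, smooth muscle, nerves, glia and myeloid cells. Some of its fibroblasts sustain the stem cells of the crypt, while others organise lymphoid follicles by secreting chemokines. Genes were read in 36 lists, of which 15 were stromal, 10 myeloid and 11 epithelial, with 387 genes in all. A total of 381 passed the filter on low counts, and *Chat*, *Lrrn4*, *Wt1*, *Epx*, *Il25* and *Gfi1b* did not.

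The 6 libraries held between 18964684 and 27251607 counts and had RNA integrity numbers of 9.4 to 10.0. Ribosomal protein transcripts took 4.57, 6.57 and 6.66% of the counts in the standard diet samples 1 to 3 and 3.96, 4.05 and 5.45% in the GW3965 samples 1 to 3. Tissue content differed far more within the GW3965 group than within the standard group. The summed level of 7 skeletal muscle genes was 18005 CPM in GW3965 sample 1, against 13.3 and 25.6 CPM in samples 2 and 3 and 10.3, 753 and 142 CPM in the standard samples. Genes of stratified epithelium, which lines the anal margin and not the colon, summed to 17987, 6.08 and 13305 CPM in the GW3965 samples and to 3296 to 4448 CPM in the standard samples. Conversely, 12 genes of epithelial identity summed to 3292 CPM in GW3965 sample 1 and to between 9153 and 20184 CPM in the other 5. Pearson's correlation of log2 CPM between GW3965 samples 1 and 2 was 0.828, below that of any pair of samples of different diets (0.864 to 0.964), while standard diet pairs reached 0.954 to 0.976. Results are therefore also given without GW3965 sample 1. In bulk tissue, fewer cells of a type and less RNA per cell cannot be told apart.

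**Figure D1:**
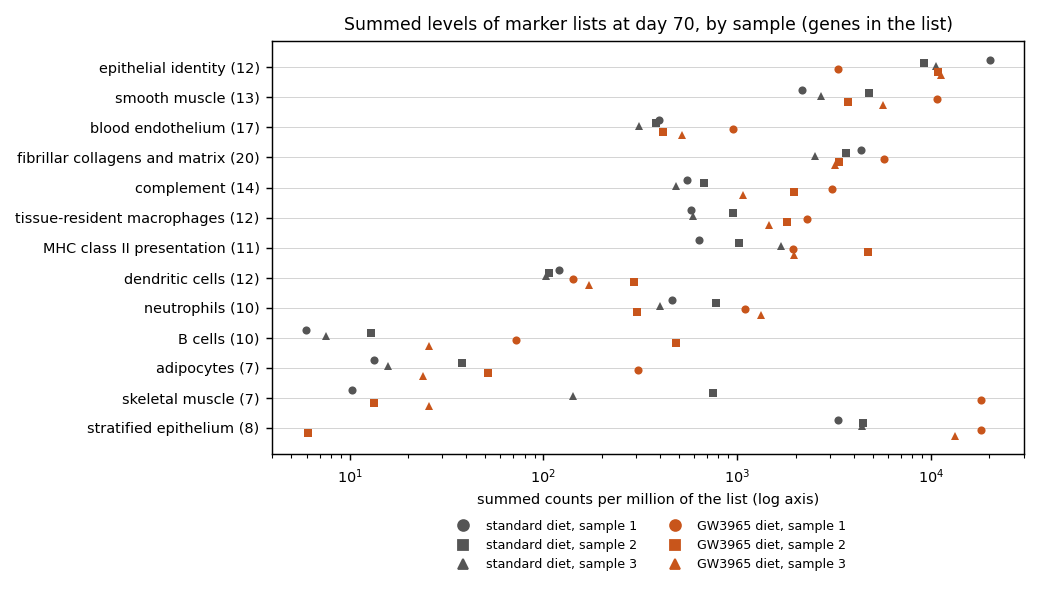
Summed CPM of 13 marker lists (log axis) in each of the 6 samples of day 70, with the number of genes in each list in brackets. GW3965 sample 1 (orange circle) is the highest for skeletal muscle, at 18005, and the lowest for epithelial identity, at 3292, and GW3965 sample 2 (orange square) is the lowest for stratified epithelium, at 6.08.

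The targets of the agonist were checked first. *Abca1*, which exports cholesterol from cells (ENSMUSG00000015243.4, chromosome 4, 53030787 to 53159895, GRCm38), measured 24.4, 45.1 and 33.1 CPM on the standard diet and 288, 220 and 161 CPM on the GW3965 diet. The groups did not overlap, and the log2 fold change was 2.67 (SE 0.28, adjusted p = 0.000135, edgeR's quasi-likelihood test). *Srebf1*, the regulator of fatty acid synthesis, stood at 181, 143 and 159 CPM and at 505, 440 and 611 CPM, a log2 fold change of 1.66 (SE 0.19, adjusted p = 0.000169). *Abcg1*, a second cholesterol exporter, stood at 17.3, 21.1 and 26.8 CPM against 109, 179 and 104 CPM, a log2 fold change of 2.51 (SE 0.29, adjusted p = 0.000169). All 12 listed LXR targets were higher on the GW3965 diet, 6 of them passed the threshold, and 11 had no overlap. The diet labels of the 6 libraries thus matched the levels of these genes.

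LXR and its partner bind a pair of half-sites AGGTCA, in direct repeat with 4 bases between them. RefSeq promoters of build GRCm38.p6 were searched on both strands, from 250 bases before to 50 bases after each start. The promoters of *Abca1* and *Srebf1* are shown because both genes rose in every day 70 comparison that left out a sample. Only the bases before the start are printed, and capitals mark the window nearest to the motif, which lies on the strand opposite to the gene with 3 mismatches over both half-sites.

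*Abca1*, chr4:53159896-53160145, minus strand: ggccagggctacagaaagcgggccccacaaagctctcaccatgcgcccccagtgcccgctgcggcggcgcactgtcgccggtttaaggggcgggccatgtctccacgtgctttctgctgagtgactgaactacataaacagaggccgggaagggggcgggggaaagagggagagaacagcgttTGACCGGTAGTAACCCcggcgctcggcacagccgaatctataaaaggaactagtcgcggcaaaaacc
*Srebf1*, the most downstream of its starts in the table, chr11:60210472-60210721, minus strand: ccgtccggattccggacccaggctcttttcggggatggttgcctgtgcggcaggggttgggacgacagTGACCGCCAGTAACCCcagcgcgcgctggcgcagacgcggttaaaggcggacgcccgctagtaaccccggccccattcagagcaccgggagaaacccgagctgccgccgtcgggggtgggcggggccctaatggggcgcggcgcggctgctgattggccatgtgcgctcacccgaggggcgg

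These windows began 67 and 182 bases before the starts. With at most 2 mismatches the motif was in the promoters of 937 of 27025 genes (3.47%) and of 357 of 12567 genes tested at day 70 (2.84%). None of the 9 LXR targets with a promoter in the table had it. Of the genes called at day 70, 12 of the 213 higher (5.63%) and none of the 11 lower had it. A limit of 3 mismatches was set after these windows were read. It gave 24.5% of all genes, 21.8% of the genes tested, 3 of the 9 targets and 24.9% of the genes called higher. A match is a description of letters only.

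Across all 17063 genes tested, 312 were called at an adjusted p below 0.05. Of these, 298 were higher on the GW3965 diet, which is 1.75% of the genes tested, and 14 were lower, which is 0.082%. For 289 of the 312 every sample of one diet lay beyond every sample of the other. Among all genes, 10.5% were higher without overlap and 8.53% lower without overlap. Of the 381 list genes, 29 were called higher and 3 lower. Of these 32, 17 from the stromal lists and 12 from the myeloid lists were higher. *Foxl1*, *Guca2b* and *Reg4* were lower. The median log2 fold change over all genes was 0.02. These counts depended on single libraries. Without standard sample 1, 2 or 3 the number of genes called was 6, 53 or 7, and without GW3965 sample 3 it was 1464. Without GW3965 sample 1 it was 107 (0.615% of 17386 genes) and without GW3965 sample 2 it was 759 (4.35% of 17455). A test on the 6 samples of day 70 alone, by edgeR's quasi-likelihood method, called 0 genes, with 1873 at an unadjusted p below 0.05, whereas DESeq2 on all samples called 1162. *Abca1*, *Abcg1*, *Srebf1*, *Enpp2* and *C1s1* were called in all 6 fits that left out a sample. Of the 32 list genes only *Enpp2* and *C1s1* were among them, and each of the others lost its call at least without standard sample 1 and without standard sample 3.

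Most genes called higher on the GW3965 diet stood at their lowest level in the standard diet colon at day 70. For 267 of the 298 genes (89.6%) the mean on the standard diet at day 70 was below the means of that diet at days 0, 22 and 43, while this held for 29.2% of all genes. The mean on the GW3965 diet at day 70 was the highest of that diet's 4 days for 76 of the 298 genes (25.5%), against 33.7% of all genes. One untreated day 0 sample, grouped here with the GW3965 diet by its title, has a diet field that names the standard diet. Without it 77 of the 298 genes had their highest GW3965 mean at day 70. Among the 17 genes from the stromal lists the standard diet mean was the lowest of its days for 16 (all but *Nos1*). This held for all 12 genes from the myeloid lists, and none of those 12 had its highest GW3965 mean at day 70. Without GW3965 sample 1, 104 genes were called higher, of which 92 (88.5%) had their lowest standard diet mean at day 70 and 19 (18.3%) their highest GW3965 mean. The same day 70 levels chose the genes, so these shares are a description. Samples of a diet came from 1 cage at day 0 and from 1 other cage at days 22 and 43. At day 70 they came from 3, so day and cage cannot be told apart.

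**Figure D2:**
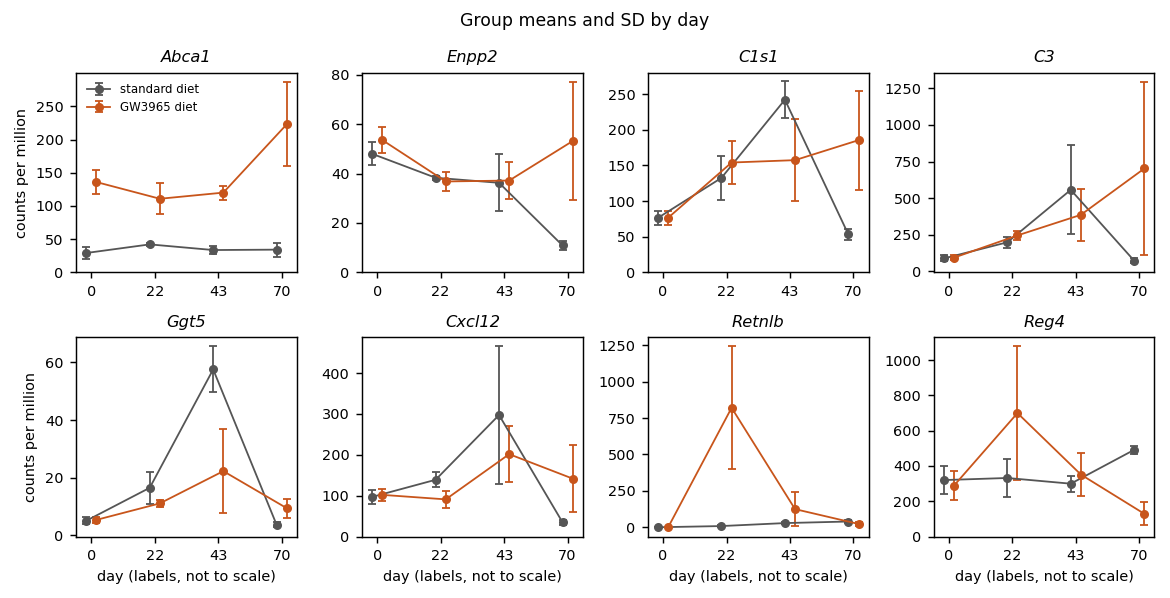
Mean and SD of 8 genes in CPM on the standard diet (grey) and the GW3965 diet (orange) at days 0, 22, 43 and 70 (n = 4 per diet at day 0, n = 3 at the other days). Mice of day 0 had received no AOM or DSS and had eaten their diet for 22 or 43 days. *Enpp2* on the standard diet stood at 48.0 CPM at day 0 and 10.9 CPM at day 70, whereas the GW3965 diet held 53.6 and 53.2 CPM on those days.

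*Enpp2* was the stromal gene of smallest p. It encodes autotaxin, a secreted enzyme that makes lysophosphatidic acid and is produced by the reticular stroma and high endothelial venules of lymphoid tissue (ENSMUSG00000022425.16, chromosome 15, 54838901 to 54952892). The samples stood at 13, 9.23 and 10.5 CPM on the standard diet and at 80.0, 46.2 and 33.4 CPM on the GW3965 diet. There was no overlap, and the log2 fold change of 2.24 (SE 0.26, adjusted p = 0.000169) stayed between 1.85 and 2.51 with each sample left out. The means of the GW3965 diet were 53.6, 36.8, 37.2 and 53.2 CPM at days 0, 22, 43 and 70, and those of the standard diet were 48.0, 38.3, 36.3 and 10.9 CPM. The contrast at day 70 thus came with a low level on the standard diet, the lowest of the 8 groups.

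The list of lymphoid follicle stroma, to which *Enpp2* belongs, had 9 of 10 genes higher and a median log2 fold change of 1.25, with 2 called. *Ccl19*, a chemokine of T zone reticular cells that draws in cells with the receptor CCR7, was the other called gene. It was detected at 0.21, 0.392 and 0.0423 CPM on the standard diet and at 4.25, 13 and 0.954 CPM on the GW3965 diet. Its log2 fold change was 5.04 (SE 1.05, adjusted p = 0.0252), and the call was lost without any 1 of the standard samples (adjusted p up to 0.161). *Cxcl13*, the chemokine that draws B cells into follicles, overlapped between the diets, with 1.89, 12.6 and 6.72 CPM against 9.06, 48.1 and 5.09 CPM (log2 fold change 1.68, adjusted p = 0.234). *Ccl21a*, the other CCR7 ligand, did not overlap, at 52.2 to 84.2 CPM against 107 to 125 CPM, but its log2 fold change of 0.76 did not pass (adjusted p = 0.381). Summed B cell markers stood beside these at 5.99 to 12.9 CPM on the standard diet and at 72.3, 485 and 25.6 CPM on the GW3965 diet. GW3965 sample 2 was the highest for B cell markers and also for *Ccl19* and *Cxcl13*, but not for *Enpp2*. The list median was 1.32 without GW3965 sample 1 and 0.65 without sample 2.

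Adventitial and crypt-base fibroblasts had 14 of 15 genes higher, 1 of them called, with a median of 0.78 that became 0.23 without GW3965 sample 1. *Cxcl12*, which retains CXCR4-bearing immune and stem cells (ENSMUSG00000061353.11, chromosome 6, 117168535 to 117181367), measured 33.1, 41.6 and 30.0 CPM against 234, 113 and 77.9 CPM. All 3 GW3965 samples lay above all standard samples, with a log2 fold change of 2.07 (SE 0.41, adjusted p = 0.0212). Without GW3965 sample 1 the value was 1.51 (adjusted p = 0.0723), and the call was also lost without each standard sample. The anchor genes *Cd34* and *Pi16* did not pass, with log2 fold changes of 0.60 and 0.04.

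The complement genes formed the list with the most calls outside the B cell markers, shared with the LXR targets. The lists were chosen with earlier results of these data known, so this rank is a description only. Complement is a cascade of plasma proteases made in the liver and, in tissues, by fibroblasts and macrophages. All 14 genes were higher, 9 of them without overlap, and 6 passed the threshold, with a median of 1.37. *C3*, the protein on which the pathways converge (ENSMUSG00000024164.15, chromosome 17, 57203970 to 57228136), measured 79.5, 84.6 and 52.6 CPM against 1373, 461 and 273 CPM. The lowest GW3965 sample was above the highest standard sample, and the log2 fold change was 3.36 (SE 0.53, adjusted p = 0.00707) or 2.43 without GW3965 sample 1 (adjusted p = 0.0177). *C1s1*, the protease of the first component, held 53.8, 61.0 and 45.0 CPM against 261, 171 and 124 CPM (log2 fold change 1.88, SE 0.27, adjusted p = 0.00264). Its near copy *C1s2* could share reads with it, so the assignment of reads between them is uncertain. The partner protease *C1ra*, which also has a near copy, held 42.4, 38.3 and 30.9 CPM against 171, 119 and 71.5 CPM (log2 fold change 1.60, adjusted p = 0.0406).

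Further called genes of the cascade were *C4b*, which is cleaved by C1s (31.8 to 48.6 CPM against 372, 181 and 82.0 CPM, log2 fold change 2.31), and *Serping1*. *Serping1*, the inhibitor of C1r and C1s, stood at 45.7 to 68.0 CPM against 258, 149 and 108 CPM (log2 fold change 1.58, adjusted p = 0.0252). For each of these 5 named genes GW3965 sample 1 was the highest and GW3965 sample 3 the lowest of its group. *Cfd*, the adipsin of fat cells, named here after its values were seen, was not called and was high in 1 library only, at 61.9 CPM in GW3965 sample 1 against at most 0.871 CPM in the other 5. The number of complement genes called was 3 without GW3965 sample 1, 3 without standard sample 2, and 1, *C1s1*, without standard sample 1 or 3. The list median kept between 1.10 and 1.62 over those fits.

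**Figure D3:**
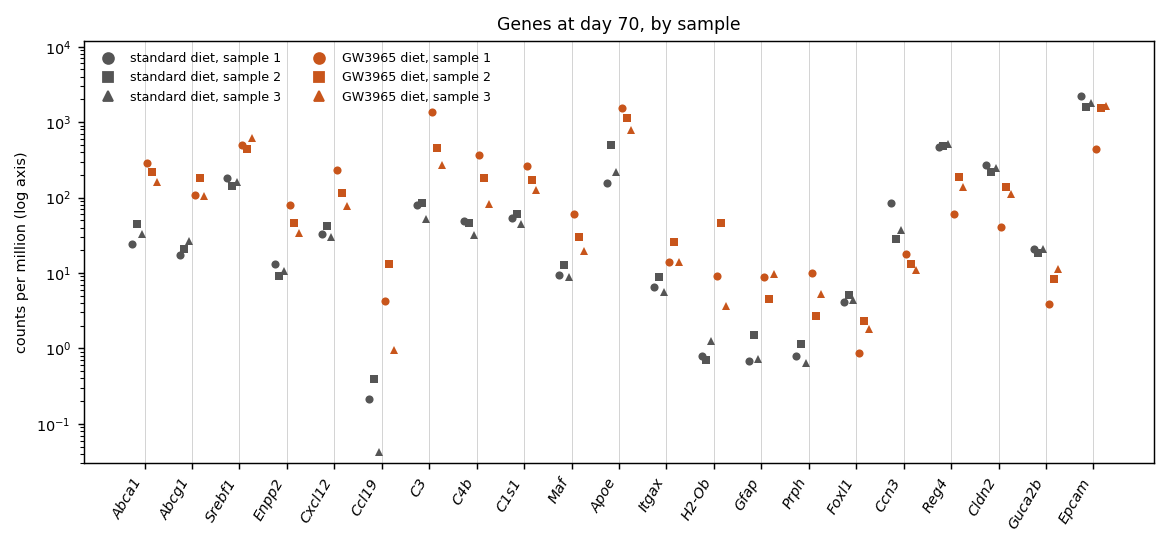
Level of 21 genes in each of the 6 samples of day 70, in CPM on a log axis, with standard diet samples in grey and GW3965 samples in orange. For *C3* the orange points lie at 273 to 1373 CPM above the grey ones at 52.6 to 84.6 CPM, and for *Reg4* they lie at 59.9 to 188 CPM below the grey ones at 474 to 519 CPM.

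None of the 20 genes of fibrillar collagens and matrix was called, and their median was 0.28, or -0.02 without GW3965 sample 1 and 0.61 without standard sample 1. *Col1a1*, the main chain of type I collagen, held 536, 322 and 239 CPM against 508, 260 and 310 CPM (log2 fold change -0.18), and *Col3a1* held 1073, 819 and 531 CPM against 1145, 855 and 634 CPM (log2 fold change 0.24). Both overlapped throughout.

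Subepithelial fibroblasts, which lie along the crypt and make Wnt and BMP ligands, had 6 of 12 genes higher and 1 called lower, with a median of 0.12 that was -0.17 without GW3965 sample 1 and 0.27 without sample 2 or 3. *Foxl1*, the transcription factor that marks telocytes, the Wnt-producing cells below the epithelium (ENSMUSG00000097084.1, chromosome 8, 121127940 to 121130644), held 4.15, 5.18 and 4.35 CPM on the standard diet and 0.87, 2.28 and 1.8 CPM on the GW3965 diet. No GW3965 sample reached the standard samples, and the log2 fold change was -1.39 (SE 0.34, adjusted p = 0.0423). The call was lost without GW3965 sample 1 (log2 fold change -1.10, adjusted p = 0.125) and without each standard sample. *Pdgfra*, the growth factor receptor of these fibroblasts, had a log2 fold change of 0.36 (adjusted p = 0.528), with 26.6 to 53.6 CPM against 33.1 to 83.6 CPM.

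Genes of inflammatory and tumour fibroblasts gave the lowest stromal median, -0.62 over 16 genes, of which 12 were lower, 6 of them without overlap. None passed the threshold, and the median was -0.22 without standard sample 2 and -0.95 without GW3965 sample 3. *Il11*, a cytokine of tumour-associated fibroblasts, held 17.7, 34.0 and 15.9 CPM against 0.87, 2.76 and 7.67 CPM (log2 fold change -2.33, SE 0.80, adjusted p = 0.126). *Mmp13*, a collagenase also named after its values were seen, held 189, 148 and 164 CPM against 3.79, 16.2 and 118 CPM (log2 fold change -1.77, adjusted p = 0.241). For both genes GW3965 sample 3 was the nearest to the standard samples. Without that sample *Il11*, *Inhba*, *Mmp10* and *Mmp13* were called. *Fap*, the protease that gives these fibroblasts one of their markers, was at 1.40 to 1.57 CPM against 4.15, 1.58 and 1.09 CPM (log2 fold change 0.79, adjusted p = 0.317).

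Vessels and muscle had many genes higher and few calls. All 17 blood endothelial genes were higher with a median of 0.65 and none called, among them *Pecam1* (51.2 to 63.7 CPM against 153, 91.4 and 80.8 CPM, log2 fold change 0.72, adjusted p = 0.146) and *Cdh5* (log2 fold change 0.65, adjusted p = 0.268), both adhesion proteins of endothelial junctions. The median was 0.29 without GW3965 sample 1. Without GW3965 sample 2, 3 endothelial genes were called, and 3 of the pericyte genes below. Pericytes, the contractile cells around capillaries, had 9 of 9 genes higher and a median of 0.75, or 0.20 without GW3965 sample 1 and 1.38 without standard sample 2, with *Rgs5* at 0.75 and *Cspg4* at 1.38 and no call. In the smooth muscle list 13 of 13 genes were higher, with a median of 0.90, or 0.51 without GW3965 sample 1, and no call. *Myh11*, the heavy chain of smooth muscle myosin, held 243, 369 and 202 CPM against 1594, 452 and 608 CPM (log2 fold change 1.34, adjusted p = 0.227), and *Actg2* overlapped (log2 fold change 0.37). Summed smooth muscle genes were highest in GW3965 sample 1, at 10738 CPM, where skeletal muscle genes were also highest, and their part in the vascular and muscle values was not tested.

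Lymphatic endothelium had 1 called gene of 8 and a median of 0.39, or 0.06 without GW3965 sample 1 and 0.65 without standard sample 1. *Stab2*, a scavenger receptor for hyaluronan, held 0.105, 0.261 and 0.0845 CPM against 6.30, 2.32 and 0.706 CPM (log2 fold change 4.17, SE 0.88, adjusted p = 0.0252, or 3.18 and 0.0848 without GW3965 sample 1). The defining markers *Lyve1* and *Flt4* overlapped, with log2 fold changes of -0.29 and 0.24. Among the 5 genes of the interstitial cells of Cajal, the pacemakers of the gut wall, *Etv1* was called, at 2.61 to 3.59 CPM against 12.9, 5.45 and 9.43 CPM (log2 fold change 1.39, SE 0.36, adjusted p = 0.0495). *Kit*, their receptor, did not overlap at 12 to 14.6 CPM against 20.5 to 23.5 CPM, with a log2 fold change of 0.54 (adjusted p = 0.138), and *Ano1*, their chloride channel, overlapped (log2 fold change -0.16). The *Etv1* call was lost without GW3965 sample 1 (log2 fold change 1.13, adjusted p = 0.191) and without each standard sample.

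In the enteric nervous system 5 genes were called. Of 10 tested neuronal genes 9 were higher and 3 called, with a median of 1.19, and all 7 glial genes were higher and 2 called, with a median of 2.18. *Gfap*, the intermediate filament of glia, held 0.683, 1.52 and 0.719 CPM against 8.96, 4.49 and 9.57 CPM. Each GW3965 sample was above each standard sample, with a log2 fold change of 2.94 (SE 0.62, adjusted p = 0.0252) or 2.83 without GW3965 sample 1 (adjusted p = 0.0526). *Sox10*, the glial transcription factor, held 0.263, 0.435 and 0.296 CPM against 6.86, 1.77 and 2.61 CPM (log2 fold change 3.16, adjusted p = 0.0292, or 2.52 and 0.0932 without that sample). The neuronal filament *Prph* held 0.788, 1.13 and 0.634 CPM against 9.93, 2.69 and 5.19 CPM (log2 fold change 2.64, adjusted p = 0.0357, or 2.12 and 0.122). *Nos1*, the nitric oxide synthase of inhibitory neurons, reached 86.5 CPM in GW3965 sample 1 and 2.47 and 3.36 CPM in the others, against 0.841, 2.31 and 0.719 CPM, and its log2 fold change of 4.14 became 0.98 without sample 1 (adjusted p = 0.731). Skeletal muscle also makes *Nos1*, and that library had the highest skeletal muscle sum. *Elavl4*, an RNA-binding protein of neurons, was higher in every GW3965 sample without passing (log2 fold change 1.48, adjusted p = 0.117). All 5 calls were lost without GW3965 sample 1 and without standard sample 1 or 3, and the list medians without GW3965 sample 1 were 0.84 and 1.20. On the standard diet *Gfap* stood at 5.94, 11.8, 7.87 and 0.975 CPM at days 0, 22, 43 and 70 and on the GW3965 diet at 6.46, 8.99, 8.54 and 7.67 CPM.

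Adipocyte genes were carried by 1 library. Their sum was 307 CPM in GW3965 sample 1 and 13.4 to 52.0 CPM in the other 5, and the median of 3.13 became -0.34 without that sample. *Adipoq* was at 8.55 CPM there and at 0 in 4 of the other 5 samples, and *Plin1* at 9.01 CPM there and at most 0.147 CPM elsewhere. *Lpl*, the lipase that frees fatty acids from lipoproteins, which muscle and macrophages also make, was the only called gene of the list and overlapped, with 4.84, 10.7 and 5.58 CPM against 132, 32.2 and 10.1 CPM (log2 fold change 3.13, adjusted p = 0.0313, or 1.69 and 0.18 without sample 1). Mesothelial genes were near the detection limit, with *Upk3b* at 0 in 4 samples, and *Msln* overlapped (log2 fold change -0.19). The mesothelial median of -0.19 was 0.12 without GW3965 sample 2 and -1.83 without sample 1.

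**Figure D4:**
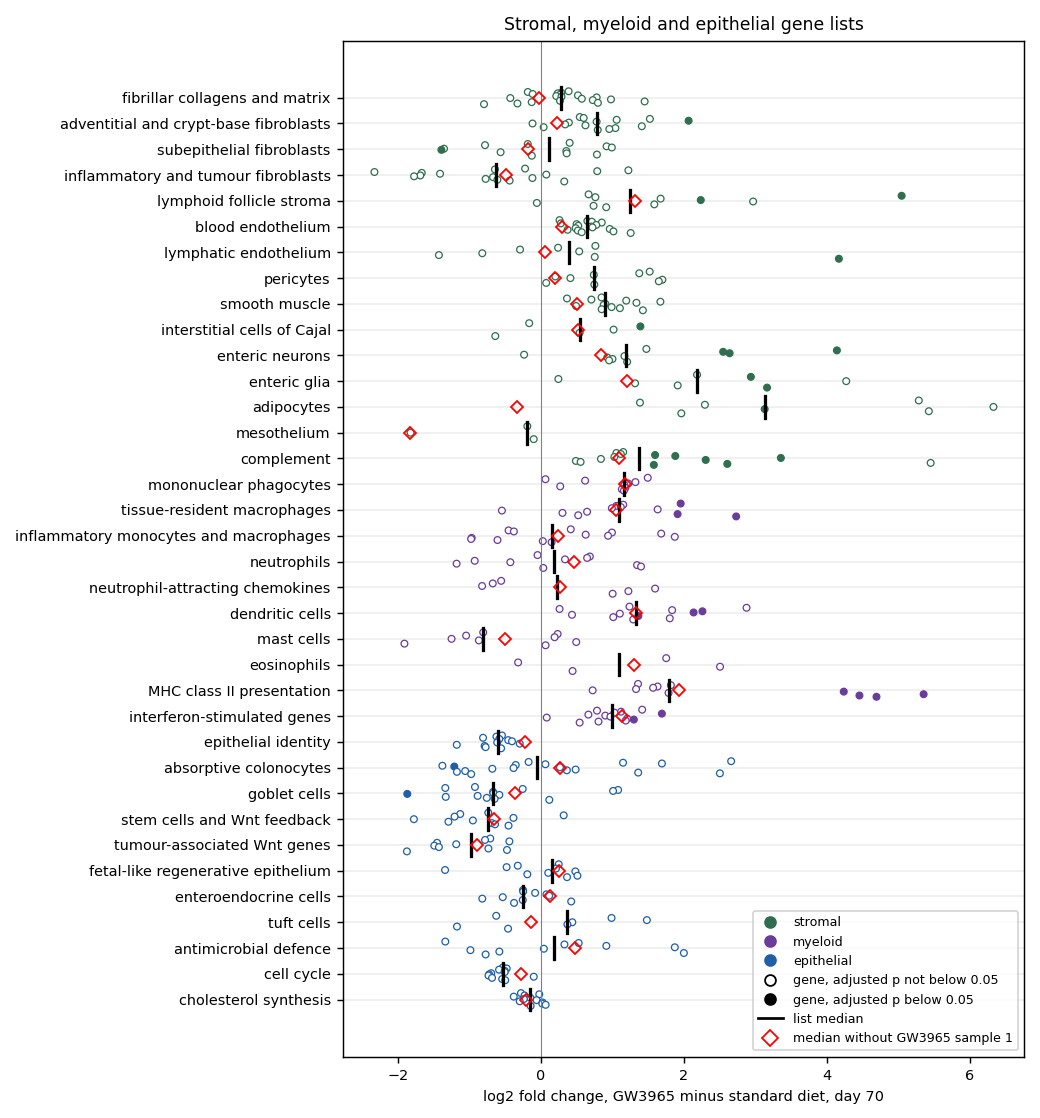
Log2 fold change (GW3965 minus standard diet, day 70) of each tested gene in the 36 lists, filled where the adjusted p was below 0.05, with the list median as a black bar and the median without GW3965 sample 1 as a red diamond. The adipocyte median moves from 3.13 to -0.34, whereas that of MHC class II presentation moves from 1.79 to 1.93 (and to 1.07 without GW3965 sample 2, not drawn) and that of epithelial identity from -0.59 to -0.22.

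The 12 genes called in the myeloid lists came from those of resident macrophages, dendritic cells, MHC class II presentation and the interferon response. These lists also hold genes that other cells make, such as *H2-Oa*, *H2-Ob* and *Maf*. All 10 genes of mononuclear phagocytes were higher, 6 of them without overlap and none called, with a median of 1.17 or 1.18 without GW3965 sample 1. *Csf1r*, the receptor on which macrophages depend, held 22.6, 37.2 and 19.7 CPM against 84.2, 83.6 and 51.6 CPM (log2 fold change 1.32, SE 0.41, adjusted p = 0.094). *Cd68* held 10.4, 18.4 and 7.82 CPM against 21, 21.1 and 19.1 CPM (log2 fold change 0.62, adjusted p = 0.474).

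Among 12 genes of tissue-resident macrophages 11 were higher and 3 called, with a median of 1.09. *Maf*, a transcription factor of resident macrophages that is also made by some lymphocytes and stromal cells (ENSMUSG00000055435.6, chromosome 8, 115682942 to 115707794), held 9.51, 12.7 and 8.88 CPM against 59.9, 30.1 and 19.7 CPM. No samples overlapped, and the log2 fold change was 1.91 (SE 0.37, adjusted p = 0.0182) or 1.36 without GW3965 sample 1 (adjusted p = 0.053). *Apoe*, the lipoprotein of cholesterol efflux and itself an LXR target, held 154, 499 and 217 CPM against 1534, 1125 and 798 CPM (log2 fold change 1.96, SE 0.49, adjusted p = 0.0477, or 1.71 and 0.146 without sample 1). The phosphatidylserine receptor *Timd4* held 0.105, 0.261 and 0.338 CPM against 0.461, 2.32 and 1.34 CPM (log2 fold change 2.73, adjusted p = 0.0357), and without GW3965 sample 2 its call was lost. The scavenger receptors *Cd163* and *Mrc1* overlapped (log2 fold changes 1.63 and 0.52). Without standard sample 1 or 3 no gene of the list was called.

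All 12 dendritic cell genes were higher, 8 without overlap, with a median of 1.33 both with and without GW3965 sample 1. *Clec9a*, a receptor of cross-presenting dendritic cells, held 0.21, 0.348 and 0.38 CPM against 1.33, 2.10 and 0.777 CPM (log2 fold change 2.26, SE 0.46, adjusted p = 0.0238, or 2.29 and 0.0392 without sample 1). *Flt3*, their growth factor receptor, held 0.841 to 1.31 CPM against 3.28, 6.48 and 2.86 CPM (log2 fold change 2.14, adjusted p = 0.0413, or 2.28 and 0.0674). *Itgax*, the integrin CD11c, held 6.52, 8.84 and 5.62 CPM against 14.1, 25.6 and 14.1 CPM (log2 fold change 1.36, adjusted p = 0.0454, or 1.51 and 0.0625). *Zbtb46*, the factor of conventional dendritic cells, held 1.27 to 2.13 CPM against 4.81, 3.90 and 2.61 CPM without passing (log2 fold change 1.29, adjusted p = 0.0722). GW3965 sample 2 was the highest for the 3 called genes. No dendritic cell gene was called without any 1 of the standard samples.

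Of the 11 genes of MHC class II presentation all were higher, 8 without overlap, with a median of 1.79, and the 4 called were those with the lowest levels. *H2-Ob* (ENSMUSG00000041538.16, chromosome 17, 34238903 to 34254414) and *H2-Oa* encode the non-classical molecule that curbs peptide loading and is made mainly by B cells. *H2-Ob* held 0.788, 0.697 and 1.27 CPM against 9.16, 45.9 and 3.67 CPM (log2 fold change 4.69, SE 0.86, adjusted p = 0.0182) and *H2-Oa* held 0.315, 0.174 and 0.423 CPM against 3.12, 14.5 and 1.52 CPM (log2 fold change 4.45, adjusted p = 0.0252). *H2-DMb2* and *H2-Eb2* had log2 fold changes of 4.24 and 5.35 (adjusted p = 0.0182 for each). In all 4 genes GW3965 sample 2 was the highest, as it was for the summed B cell markers (485 CPM), and without it the 4 values remained called at lower log2 fold changes, 3.06 for *H2-Ob*, 3.00 for *H2-Oa*, 2.59 for *H2-DMb2* and 3.57 for *H2-Eb2*. The list median was 1.07 without that sample. The classical chains *H2-Aa* and *H2-Ab1* held 75.9, 141 and 259 CPM against 312, 705 and 255 CPM and 104, 176 and 270 CPM against 339, 743 and 334 CPM, with log2 fold changes of 1.63 (adjusted p = 0.128) and 1.57 (adjusted p = 0.0741). The 4 calls were lost without each standard sample (adjusted p up to 0.161). The part of B cells in the list was not tested.

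Interferon-stimulated genes had 14 of 14 members higher with a median of 1.00, of which 2 were called. Their summed level was 364, 296 and 471 CPM on the standard diet and 424, 1164 and 437 CPM on the GW3965 diet, and without GW3965 sample 2 the median was 0.50 with 12 of 14 higher. *Ifit3* held 4.31, 4.70 and 7.61 CPM against 22.7, 21.2 and 10.8 CPM (log2 fold change 1.69, SE 0.41, adjusted p = 0.0406, or 1.52 and 0.115 without GW3965 sample 1). *Rsad2*, which makes an antiviral nucleotide, held 2.58, 3.00 and 3.17 CPM against 8.80, 7.15 and 5.62 CPM (log2 fold change 1.30, adjusted p = 0.0469, or 1.14 and 0.145). Both were free of overlap, as was *Ifit1* (3.57 to 10.6 CPM against 13.4 to 21 CPM, adjusted p = 0.206), whereas *Isg15* overlapped.

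No gene of recruited inflammatory cells was called. Inflammatory monocytes and macrophages had a median of 0.15 over 13 genes and no call, or -0.0072 without GW3965 sample 3, with *Il1b* at 20.0, 95.4 and 52.6 CPM against 17.4, 67.3 and 128 CPM (log2 fold change 0.63, SE 0.91) and *Ly6c2* at 3.68 to 11.1 CPM against 6.32 to 20.9 CPM. Neutrophil genes had a median of 0.19 over 10 genes and no call, and its sign changed with single libraries left out, at -0.67 without GW3965 sample 3, -0.05 without standard sample 1 and 0.79 without standard sample 2. *S100a8* and *S100a9*, which form calprotectin, were at 58.1 to 247 and 74.5 to 286 CPM on the standard diet and at 500, 56.8 and 393 and at 531, 57.0 and 661 CPM on the GW3965 diet. Both genes are also made by stratified epithelium, whose summed level was also lowest in GW3965 sample 2, at 6.08 CPM. That part was not tested. The chemokines *Cxcl1* and *Cxcl2*, which draw neutrophils, overlapped (log2 fold changes -0.67 and -0.82, adjusted p = 0.633 and 0.702). The median of the neutrophil chemokine list, 0.23, was -0.48 without GW3965 sample 3 and 0.74 without standard sample 2.

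Mast cell genes gave a median of -0.80 over 9 genes with none called, or -0.50 without GW3965 sample 1. *Cma1*, a mast cell chymase, held 7.15, 8.75 and 11.8 CPM against 2.76, 6.34 and 5.23 CPM, free of overlap (log2 fold change -0.80, SE 0.50, adjusted p = 0.39). *Cpa3* overlapped at 0.736 to 2.05 CPM against 1.29 to 1.79 CPM. Of 4 tested eosinophil genes 3 were higher and none called, with *Siglecf* at 0.38 to 1.37 CPM against 0.665 to 1.40 CPM.

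In the epithelium 2 list genes were called, and both were lower on the GW3965 diet. All 12 genes of epithelial identity were lower, with a median of -0.59 that was -0.22 without GW3965 sample 1 and -0.18 without standard sample 1, and none was called. *Epcam*, the adhesion protein of all intestinal epithelial cells, held 2235, 1593 and 1770 CPM against 436, 1517 and 1661 CPM (log2 fold change -0.61, SE 0.36, adjusted p = 0.368), and *Cdh1*, E-cadherin, held 1576, 728 and 767 CPM against 453, 757 and 979 CPM (log2 fold change -0.54). GW3965 sample 1 was the lowest of the 6 for both genes, and the part of this lower epithelial content in the values below was not tested.

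*Reg4* was the goblet cell gene called lower. It encodes a secreted lectin of deep crypt secretory and goblet cells that is raised in many colorectal tumours (ENSMUSG00000027876.4, chromosome 3, 98222156 to 98236748). The 3 standard samples were close together at 474, 482 and 519 CPM, and the GW3965 samples were at 59.9, 188 and 138 CPM. The diets were far from overlapping, and the log2 fold change of -1.87 (SE 0.44, adjusted p = 0.0378) was -1.53 without GW3965 sample 1 (adjusted p = 0.13), and the call was also lost without each standard sample. At days 0, 22 and 43 the standard diet means were 320, 332 and 299 CPM, so that day 70 was the highest of that diet. The GW3965 means at days 0, 22, 43 and 70 were 289, 700, 351 and 129 CPM, so day 70 was the lowest there. At day 22 the GW3965 mean was above the standard one, a difference that did not pass. In the whole goblet list 11 of 14 genes were lower, with a median of -0.67, or -0.36 without GW3965 sample 1 and -1.20 without sample 2. *Muc2*, the mucus-forming mucin, held 309, 146 and 201 CPM against 92.9, 196 and 103 CPM (log2 fold change -0.66, adjusted p = 0.402), and *Clca1*, another mucus protein, held 92.5 to 254 CPM against 46.8, 405 and 500 CPM (log2 fold change 1.08, adjusted p = 0.39). Both mucus genes overlapped between the diets. Without GW3965 sample 2, which had the highest *Reg4* level of its group, 5 goblet genes were called lower.

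Absorptive colonocytes had 9 of 18 genes higher and a median of -0.05, which ran from -0.51 without GW3965 sample 2 to 0.27 without GW3965 sample 1 or standard sample 1. *Guca2b*, uroguanylin, which stimulates fluid secretion through guanylate cyclase C, held 20.8, 18.7 and 20.7 CPM against 3.84, 8.44 and 11.3 CPM (log2 fold change -1.21, SE 0.31, adjusted p = 0.0477, or -0.91 and 0.164 without GW3965 sample 1). Guanylin, *Guca2a*, named after its values were seen, stood lower in every GW3965 sample without passing (log2 fold change -1.38, adjusted p = 0.103). *Car1* overlapped (log2 fold change -0.17). The chloride exchanger *Slc26a3* was at 116 CPM in GW3965 sample 2 and at 6.09 to 18.6 CPM in the other 5 (log2 fold change 1.36, adjusted p = 0.323), and the water channel *Aqp8*, likewise named after its values were seen, was at 102 CPM in that sample and at 3.48 to 14.7 CPM in the others. Outside the lists, *Cldn2*, the cation-selective pore of tight junctions (ENSMUSG00000047230.6, chromosome X, 139800828 to 139811386), held 267, 216 and 244 CPM against 40.6, 136 and 113 CPM. Its log2 fold change was -1.39 (SE 0.29, adjusted p = 0.0252) and -1.03 without GW3965 sample 1 (adjusted p = 0.0259), while the call was lost without each standard sample.

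No stem cell or Wnt gene was called, and their levels were mostly lower. Of 11 genes of stem cells and Wnt feedback 10 were lower, 4 without overlap, with a median of -0.73, and all 10 tumour-associated Wnt genes were lower, with a median of -0.98. *Lgr5*, the receptor of R-spondin that marks crypt base stem cells, held 38.0, 69.4 and 67.0 CPM against 10.5, 8.91 and 27.5 CPM (log2 fold change -1.77, SE 0.80, adjusted p = 0.236). *Axin2*, a feedback inhibitor that reads out Wnt signalling, held 103, 173 and 176 CPM against 38.1, 53.7 and 130 CPM (log2 fold change -1.13, SE 0.59, adjusted p = 0.311). *Notum*, a Wnt inhibitor secreted by Apc-mutant cells, held 16.7, 115 and 106 CPM against 9.26, 15.6 and 50.7 CPM (log2 fold change -1.49, SE 1.11, adjusted p = 0.479), and *Nkd1* held 42.8, 199 and 150 CPM against 38.6, 40.4 and 84.8 CPM (log2 fold change -1.18, adjusted p = 0.238). For *Notum* and *Nkd1* standard sample 1 was nearer to the GW3965 samples than to the other standard samples. Without GW3965 sample 3 the medians of these lists were -1.42 and -1.87, and *Ascl2* and *Ephb2* were called. Without both GW3965 sample 1 and standard sample 2, a pair chosen after seeing the data, the medians were -0.47 and -0.48.

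The remaining epithelial lists held no call. All 12 cell cycle genes were lower, with a median of -0.53, or -0.28 without GW3965 sample 1 and -0.87 without sample 3, and *Mki67* and *Top2a* overlapped (log2 fold changes -0.10 and -0.50). Fetal-like regenerative genes had a median of 0.16 that was -0.63 without GW3965 sample 3, with 1 of 10 genes higher, and -0.43 by limma-voom, with *Ly6a* at 0.10 and *Clu* at 0.21. Enteroendocrine genes had a median of -0.25, or 0.29 without standard sample 1 and -0.96 without GW3965 sample 2, with the granin *Chga* at -0.25 and *Neurod1* at -0.53. Tuft cell genes had a median of 0.37, or -0.37 without GW3965 sample 2 and 0.68 without sample 3. Of these, *Dclk1* held 3.47 to 4.42 CPM against 12.2, 9.87 and 5.30 CPM (log2 fold change 0.99, adjusted p = 0.0751), which nerves and fibroblasts also make, while the channel *Trpm5* overlapped at 1.04 to 1.31 CPM against 0.461 to 1.45 CPM. Antimicrobial genes had a median of 0.19, or -0.13 without GW3965 sample 2 and 0.47 without sample 1, with *Reg3b* at 0.04 and *Reg3g* at -0.98. Cholesterol synthesis genes were near 0, with a median of -0.14 (0.08 without standard sample 1) and with the synthase *Hmgcs1* at -0.06, from 256 to 405 CPM on the standard diet and 302 to 339 CPM on the GW3965 diet.

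Over all genes, 6 of the 15 of smallest p that rose without overlap were in no stromal, myeloid, epithelial or LXR target list. *Vcam1*, an adhesion protein of endothelium and stroma, held 9.15, 16.2 and 8.12 CPM against 48.3, 61.2 and 24.6 CPM (log2 fold change 2.06, SE 0.35, adjusted p = 0.0167, or 2.00 and 0.0259 without GW3965 sample 1). *Apod*, a lipocalin made by fibroblasts and glia whose log2 fold changes at the earlier days were 2.42, 1.95 and 1.16, held 4.42, 9.01 and 6.85 CPM against 246, 46.6 and 47.6 CPM at day 70 (log2 fold change 3.93, SE 0.70, adjusted p = 0.0182). *Lpcat1*, which remodels phosphatidylcholine, held 20.6, 13.5 and 14 CPM against 31.7, 34.1 and 26.7 CPM (log2 fold change 1.02, adjusted p = 0.0182). *Syp*, synaptophysin of nerve endings, held 1.16, 1.57 and 1.48 CPM against 4.4, 3.06 and 3.43 CPM (log2 fold change 1.39, adjusted p = 0.0104). *Rasgrp1*, an activator of Ras in lymphocytes, and *Klrb1f*, a receptor of natural killer and T cells, had log2 fold changes of 2.79 and 3.62. *Mylip*, the LXR target that degrades the LDL receptor, rose from 25.7, 21 and 35.3 CPM to 95.7, 95.4 and 91.3 CPM (log2 fold change 1.70, adjusted p = 0.00857). Each of these calls was kept without GW3965 sample 1 and without GW3965 sample 2, and lost in at least 1 fit without a standard sample.

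All 14 genes called lower were free of overlap. *Ccn3*, a matricellular protein that curbs fibrosis and growth, had the smallest p of them (ENSMUSG00000037362.8, chromosome 15, 54745702 to 54754039). It held 83.6, 28.4 and 36.9 CPM against 17.7, 13.2 and 10.8 CPM, a log2 fold change of -1.86 (SE 0.29, adjusted p = 0.00707). The call was lost only without standard sample 1, where the log2 fold change was -1.18 (adjusted p = 0.0566). Means of *Ccn3* on the standard diet were 14.5, 33.9, 24.5 and 49.6 CPM at days 0, 22, 43 and 70. Those on the GW3965 diet were 9.99, 7.35, 12.9 and 13.9 CPM, lower at each day, so the lower level was not particular to day 70. *Ccn3* lies next to *Enpp2* on chromosome 15, and the 2 genes went in opposite directions. *Slc23a2*, a vitamin C transporter, *Hsd3b7*, an enzyme of bile acid synthesis from oxysterols, *Ercc8*, of DNA repair, *Pisd*, which makes phosphatidylethanolamine, and the chromatin subunit *Ino80c* had log2 fold changes between -0.79 and -0.58. *Hsd3b7* held 31.0, 51.3 and 42.5 CPM against 17.3, 23.8 and 31.0 CPM (adjusted p = 0.0402). *Ttyh1*, a membrane protein, fell by 1.21 on the log2 scale, and *Rpl10*, a ribosomal protein gene with many near copies whose reads may be split, fell by 0.86. All of these except *Ccn3* and *Cldn2* lost their call without GW3965 sample 1.

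**Figure D5:**
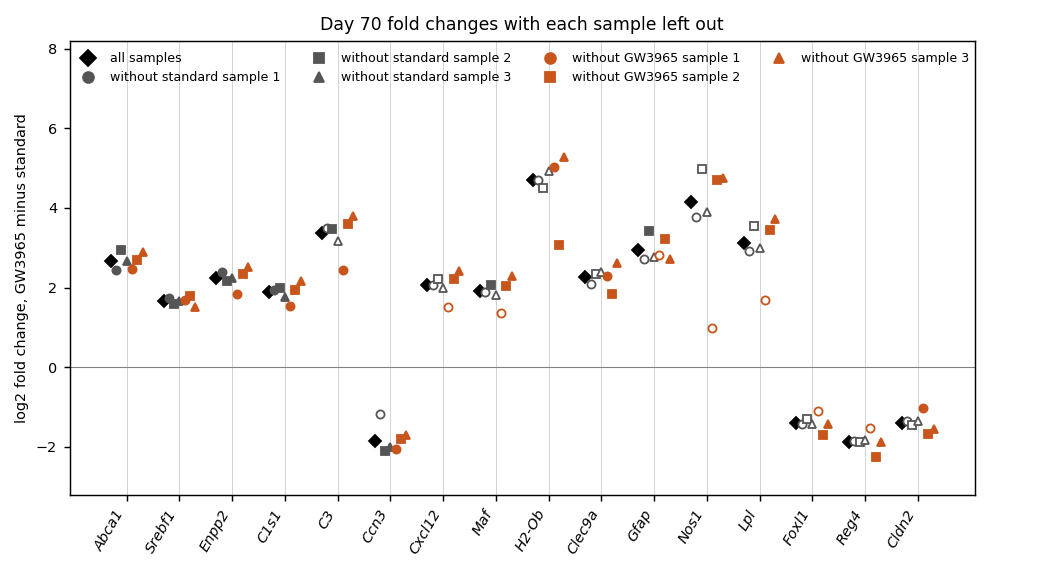
Log2 fold change (GW3965 minus standard diet, day 70) of 16 genes in the fit of all samples (black diamonds) and in the 6 fits that left out 1 sample, filled where the adjusted p was below 0.05. *Abca1*, *Srebf1*, *Enpp2* and *C1s1* are filled throughout, whereas *Nos1* moves from 4.14 to 0.98 and *Lpl* from 3.13 to 1.69 without GW3965 sample 1.

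The diet effect at day 70 was last set against that of the earlier days in the same fit. It differed from the effect at day 22 for 4 genes (0.0234% of those tested) and from the effect at day 43 for 3 genes (0.0176%), while 0 genes differed from day 0 by edgeR, with 2169 at an unadjusted p below 0.05 and 309 by DESeq2. *Enpp2* differed from both, by 2.27 on the log2 scale each time (adjusted p = 0.0342 and 0.022), its effect having been -0.03 at day 22 and -0.03 at day 43. *C1s1* differed from day 43 by 2.39 (adjusted p = 0.022), where the effect had been -0.51. The LXR target *Abca1* had log2 fold changes of 2.23, 1.41 and 1.79 at days 0, 22 and 43 and 2.67 at day 70, and none of the differences from day 70 passed (adjusted p from 0.105 to 0.63). The median log2 fold changes of the complement list at days 0, 22 and 43 were -0.11, 0.03 and -0.31, against 1.37 at day 70, and those of glia were -0.01, -0.21 and -0.09, against 2.18. The day 0 sample whose title names GW3965 and whose diet field names the standard diet held 151 CPM of *Abca1*, against 113, 148 and 132 CPM in the other GW3965 samples of day 0 and 18.5 to 41.0 CPM in those of the standard diet. Without it the log2 fold change of *Abca1* at day 0 was 2.19, and 0 genes differed from day 0, 3 from day 22 and 3 from day 43. The genes called at day 70 then numbered 195, of which 189 were higher. The samples of day 0 came from 1 cage per diet, and so did those of days 22 and 43. Diet and cage therefore cannot be told apart at those days.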

How the data were processed

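Polyadenylated RNA from 26 mouse colon samples had been sequenced as paired-end reads, and 6 samples of day 70 entered the diet contrast. The deposited tables hold estimated counts per transcript, which the authors made with kallisto against GRCm38 cDNA, one table per sample. The kallisto version and annotation release are not given in the sources used here.

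Estimated counts were summed over transcripts to 35975 genes and rounded to whole numbers. Of 119414 transcripts 97.8% matched a gene, and the unmatched ones held 0.615 to 0.999% of each library. Totals ran from 18195345 to 41522204 counts per sample. Genes of low count were removed by edgeR's default expression filter, which left 17063. TMM factors were applied, and edgeR's quasi-likelihood test (edgeR 4.0.16, R 4.3.3) was fitted to all 26 samples in 8 groups of diet and day, with the share of counts, in percent, taken by 88 ribosomal protein genes as an additive term. The study names a ribosomal percentage as covariate without defining it, and this one was used in its place. p-values were adjusted by the Benjamini-Hochberg method over all genes tested. CPM values are TMM-normalised, and fold changes are log2 of the GW3965 over the standard diet. DESeq2 1.42.0 and limma 3.58.1 served as alternatives, and each sample of day 70 was left out in turn. The test script was checked on simulated data.

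With 3 samples per diet an exact permutation test of a single gene cannot go below p = 0.1, so the tests rest on the spread shared over genes and groups. The labels give each day 70 sample its own cage. The study's reporting summary describes bulk samples as pools of a few biological replicates in an experiment done once. A figure legend instead gives a few mice per timepoint. The p-values therefore measure the spread between samples, each of them a pool or a mouse. Day 0 samples were grouped by their titles, and 1 of them carries the other diet in its diet field. No pair of samples held identical values (0 pairs). The members, lists and tests were chosen with earlier results of these data known.

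Named genes were the first 2 of each list, up to 4 further called genes per list of smallest p, the 15 higher and 15 lower called genes of smallest p without overlap over all genes, and *Abca1*, *Abcg1* and *Srebf1*. Immunoglobulin genes, the B, plasma and T cell lists and unnamed gene models were left out of the rule over all genes. Promoters came from RefSeq. A few genes that the rule selects are not reported here, though list counts include them.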

Additional observations from a re-analysis of the deposited data

Results flagged for a closer look

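For 6 genes the day 70 effect of diet was unlike that of day 22 or day 43 by edgeR's quasi-likelihood test of the difference. Against day 22 the effect was larger by 2.27 on the log2 scale for *Enpp2* (SE 0.36, adjusted p = 0.0342) and by 4.19 for *Smarca1*, a chromatin remodeller (SE 0.67, adjusted p = 0.0342). *Smarca1* stood at 0.208 and 1.26 CPM on the standard and GW3965 diets at day 70 and at 2.33 and 0.784 CPM at day 22. The difference was -6.87 for *Retnlb*, a bactericidal protein of goblet cells (SE 1.14, adjusted p = 0.0366), whose means were 8.69 and 820 CPM at day 22 and 39.8 and 23.1 CPM at day 70. It was -0.908 for *Mrps18c*, a mitochondrial ribosomal protein (SE 0.15, adjusted p = 0.0366), with 38.8 and 68.7 CPM at day 22 and 41.8 and 28.4 CPM at day 70.

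Against day 43 the effect was larger by 2.39 for *C1s1* (SE 0.36, adjusted p = 0.022), by 2.27 for *Enpp2* (SE 0.35, adjusted p = 0.022) and by 2.77 for *Ggt5*, a fibroblast enzyme of leukotriene metabolism (SE 0.46, adjusted p = 0.0382). *Ggt5* stood at 3.59 and 9.37 CPM at day 70 and at 57.6 and 22.2 CPM at day 43. With each day 70 sample left out in turn, the number of such genes ran from 0 to 929 against day 22 and from 0 to 288 against day 43. At days 22 and 43 each diet was 1 cage, so diet and cage cannot be told apart there.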

How the results depend on the processing

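The number of genes called at day 70 was 312, of which 95.5% were higher. It was 524 with no ribosomal term, 0 on the 6 samples of day 70 alone with or without that term (398 and 1873 at an unadjusted p below 0.05, edgeR), 851 (85.7% higher) without the day 43 sample of the lowest RNA integrity, 1162 (83.4% higher) by DESeq2, 24 by limma-voom, 203 with upper quartile factors, 151 with no filter and 9 without GW3965 sample 1 and standard sample 2 together and 195 without the day 0 sample of conflicting diet labels, both chosen after seeing the data. Leaving out 1 sample gave 6 to 1464. For the gene lists, 32 calls became 0 and 0 on the 6 samples, 57 without the day 43 sample, 70 by DESeq2, 4 by limma-voom, 20 with no filter, 2 without both samples, 21 without that day 0 sample and 2 to 75 with 1 sample left out. The causes were not tested.

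The diet effect differed from that of day 0 for 0 genes, or 1 with no ribosomal term, 309 by DESeq2 and 0 to 418 with 1 sample left out. Against day 22 the count of 4 became 42 with no ribosomal term, 938 by DESeq2 and 0 to 929. Against day 43 the count of 3 became 318 by DESeq2 and 0 to 288.

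Samples of the same number share only that number: the correlations of their deviations at day 70 were -0.37, -0.218 and 0.0154. With the replicate block 8 genes were called, 2 of them in the lists, and 0 genes differed from day 22 and 0 from day 43.

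Of the 49 named genes called, 47 were kept with no ribosomal term, 49 by DESeq2, 46 with RLE factors, 38 with upper quartile factors, 31 with no filter, 15 by limma-voom and 7 with the block, and none changed sign. Of the medians of the 36 lists over 17 refits, 50 moved beyond the spread and 562 did not. The spread was the pooled SD of a list's mean level between samples of a diet. Outlying libraries widen it, so an unmoved median need not be a stable one. Sign changes were limited to 26 uncalled genes. On the 6 samples with the ribosomal term the log2 fold changes were -0.426 for *Col3a1*, -0.249 for *Pdgfra*, -0.00539 for *Flt4*, 0.195 for *Msln*, 0.182 for *Cxcl1*, 0.858 for *Cxcl2*, 0.384 for *Notum*, 0.209 for *Nkd1*, 0.1 for *Trpm5* and -0.13 for *Reg3b*. On the 6 samples without that term they were -0.465 for *Reg3b* and 0.0221 for *Hmgcs1*, and on all samples without it -0.464 and 0.00872. Without both samples they were -0.0412 for *Col3a1*, -0.0838 for *Pi16*, -0.118 for *Pdgfra*, -0.0741 for *Flt4*, -0.0195 for *Adipoq*, 0.0396 for *Msln*, 0.0432 for *Cxcl1*, 0.0106 for *Car1* and 0.0189 for *Chga*. By limma-voom they were -0.115 for *Pi16*, 0.0935 for *Upk3b* and -0.00965 for *Ly6a*, and with the replicate block -0.0538 for *Pi16*, -0.022 for *Ly6a* and -0.0167 for *Clu*.

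With 1 sample left out, the values ran from -0.451 to 0.128 for *Col1a1*, -0.0142 to 0.642 for *Col3a1*, -0.746 to 0.714 for *Pi16*, -0.085 to 0.664 for *Pdgfra*, -0.494 to 0.0505 for *Lyve1*, 0.000406 to 0.442 for *Flt4*, -0.389 to 0.346 for *Ano1*, -3.51 to 8.78 for *Adipoq*, -1.83 to 1.73 for *Upk3b* and -1.5 to 0.178 for *Msln*. They ran from -0.00722 to 1.19 for *Il1b*, -1.25 to -0.252 for *Cxcl1*, -1.39 to -0.296 for *Cxcl2*, -0.0798 to 0.623 for *Cpa3*, -0.535 to 1.88 for *Slc26a3*, -0.631 to 0.331 for *Car1*, -2.65 to -1.14 for *Notum*, -1.66 to -0.751 for *Nkd1*, -0.135 to 0.456 for *Ly6a* and -0.272 to 0.507 for *Clu*. They ran from -0.931 to 0.0877 for *Chga*, -2.27 to 0.683 for *Neurod1*, -1.08 to -0.132 for *Trpm5*, -0.213 to 0.337 for *Reg3b*, -0.248 to 0.274 for *Mki67* and -0.171 to 0.129 for *Hmgcs1*. *Upk3b* was below 1 CPM in every day 70 sample, so its values rest on few counts.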

Other observations

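Several gene families outside the lists also held calls at day 70. They were picked after their values were seen and are given as a description. Over all genes tested, 51.4% had a positive log2 fold change and 1.75% were called higher. The family medians were not taken without GW3965 sample 2 or without a standard sample. All 8 tested *Gimap* genes, guanosine triphosphate-binding proteins of lymphocytes, were higher on the GW3965 diet, and 6 were called, with a median log2 fold change of 2.00, or 2.13 without GW3965 sample 1. Of 13 interferon-inducible p200 genes, sensors of DNA in immune cells, 12 were higher and 4 called (*Ifi203*, *Ifi205*, *Ifi213* and *Mndal*), with a median of 1.96. All 5 *Slamf* genes, adhesion receptors of haematopoietic cells, were higher and 3 called (*Slamf1*, *Slamf6* and *Slamf7*), with a median of 2.62.

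Tryptophan breakdown through kynurenine had 7 of 7 genes higher and 2 called, *Kmo* and *Haao*, 2 of its enzymes, with a median of 2.09. Among 21 *Klr* genes, receptors of natural killer cells, 18 were higher and 3 called (*Klrb1f*, *Klri1* and *Klri2*), with a median of 1.05. The summed B cell markers beside all of these were highest in GW3965 sample 2, at 485 CPM, and the part of lymphocyte content was not tested.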
